A study of Mus musculus with 6 samples.

Results

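The enzymes that hydroxylate and crosslink collagen, together with the chaperone that binds folded collagen, were examined in cultured mouse calvarial preosteoblasts. The group held 10 genes, namely the prolyl 4-hydroxylase subunits P4ha1, P4ha2 and P4ha3, the lysyl hydroxylases Plod1, Plod2 and Plod3, the lysyl oxidases Lox, Loxl1 and Loxl2, and the chaperone gene Serpinh1. They were taken by gene symbol from a table of 17001 rows, and all 10 were found once. RNA-seq had been performed on 6 libraries, 3 from Nell2 fx/fx cells (control) and 3 from cells that carried Col1-cre on the same Nell2 fx/fx background (cKO). Both groups thus shared the floxed alleles, the 3-day age of the donor pups and growth in α-MEM with serum, without an osteogenic or adipogenic cocktail in the sample labels. Cre was driven by a fragment of the Col1a1 promoter, so recombination is limited to cells that use this promoter, and the share of such cells in each culture is not given. The labels do not say that each library came from a separate animal, and p-values below measure only the spread between these libraries.

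Collagen chains are modified while they are being translated into the endoplasmic reticulum. Prolyl 4-hydroxylase converts prolines to 4-hydroxyproline, which keeps the triple helix stable at body temperature, and lysyl hydroxylases convert lysines to hydroxylysine, which can carry sugars and sets the chemistry of the later crosslinks. Both enzyme families use iron, ascorbate, oxygen and 2-oxoglutarate. HSP47, the product of Serpinh1, binds the folded triple helix and accompanies it toward the Golgi. Outside the cell, the copper-dependent lysyl oxidases oxidise lysine and hydroxylysine side chains to aldehydes that condense into crosslinks, and in bone this network is the scaffold for mineral.

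Each gene had 1 value per library, in FPKM, which scales fragment counts to transcript length and to the size of the library. Because length is already divided out, levels of different genes can be set side by side, but the number of reads is hidden and the depth of the libraries is unknown. FPKM summed to 573307 to 606428 per library, and the libraries correlated at 0.982 to 0.994 across the 11590 rows tested. The targeted gene, Nell2, was at 3.17, 2.59 and 1.88 FPKM in control replicates 1 to 3, and at 5.64, 1.61 and 5.74 FPKM in the libraries labelled cKO (log2 fold change 0.48, SE 0.37, adjusted p = 0.591 by limma). Nell2 was therefore not lower as a group in the libraries labelled cKO, and every direction given here follows the labels. The gene Tmem117 on the opposite strand, at a mean of 1.43 FPKM, overlaps 20869 bases of Nell2. Levels of Nell2 are thus uncertain where counting ignored strand. Y-linked genes were expressed in control replicate 3 and cKO replicates 1 and 3, with summed levels of 49.6 to 54.7 FPKM, against 0.01 to 0.29 FPKM in the other libraries. The osteoblast lineage genes Col1a1 and Col1a2 were the first and second highest rows of the table. Sp7, a transcription factor of osteoblasts, was at 13.2 to 17.6 FPKM in controls and 10.3 to 12.4 FPKM in cKO libraries, which did not overlap. Of 9 tested osteoblast lineage markers, Sp7 included, 4 had every cKO library below every control, against 11.8% of all rows. The other 5, Runx2 and Spp1 among them, overlapped. Macrophage, endothelial, muscle and cartilage marker lists had summed levels that overlapped between the groups, while the epithelial list (0.46 to 13.4 FPKM in controls, 18.2 to 42.7 FPKM in cKO) and the adipocyte list (22.6 to 33.1 and 60.7 to 96.4 FPKM) did not.

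Mean levels were higher in the libraries labelled cKO, by 1.23 to 1.43 times, for 5 of the 10 genes, namely P4ha1, P4ha2, Plod1, Plod2 and Lox. The other members, P4ha3, Plod3, Loxl1, Loxl2 and Serpinh1, had ratios of group means from 0.918 to 1.03. In limma's moderated test on log2(FPKM + 1), 0 of the 10 passed an adjusted p-value of 0.05, as did 0 (0%) of the 11590 rows tested. At an unadjusted p-value under 0.05, 5 of the 10 were higher in cKO, where 5.37% of all rows were, and 0 were lower, where 7.76% were. The 3 cKO libraries lay above the 3 control libraries for P4ha1, P4ha2 and Lox, 3 of the 10, against 6.51% of all rows, and below them for 0 of the 10, against 11.8% of all rows. The median log2 fold change was 0.17 over the 10 genes and -0.02 over all rows. All of them passed the filter on low values, being above 30 FPKM in every library.

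**Figure D1:**
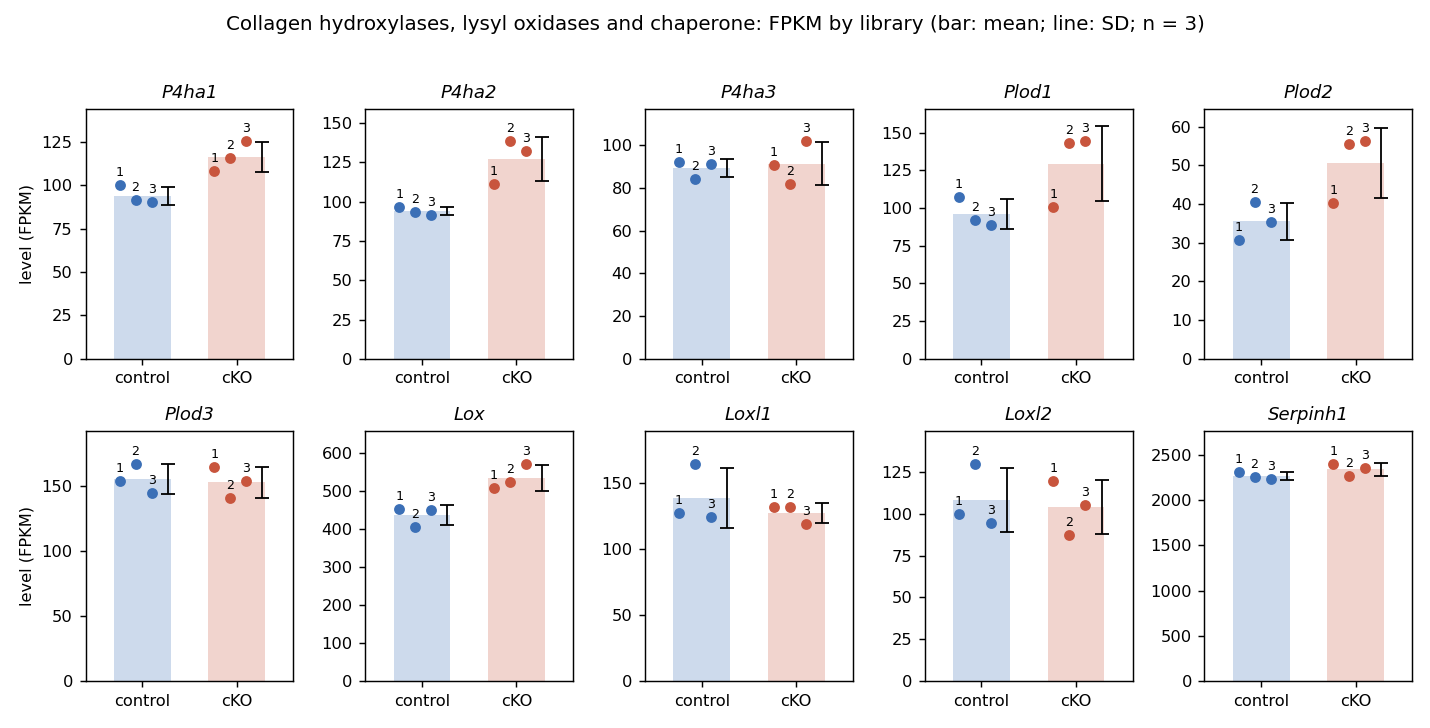
FPKM of each of the 10 genes in the 3 control and 3 cKO libraries, with 1 point per library (numbered by replicate), bars for the group mean and lines for the SD (n = 3), each panel on its own axis from 0. The cKO points lie above all control points for P4ha1, P4ha2 and Lox, and cKO replicate 1 sits inside the control range for Plod1 and Plod2.

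The α subunits of prolyl 4-hydroxylase carry the active site of the enzyme. P4ha1 (GRCm38 chromosome 10, 59323296 to 59373304, plus strand, GENCODE M21), which encodes the widespread form, was at 99.99, 91.6 and 90.5 FPKM in control replicates 1, 2 and 3, and at 108, 116 and 125 FPKM in cKO replicates 1, 2 and 3. P4ha2 (chromosome 11, 54100095 to 54131665, plus strand), whose product is a second form prominent in chondrocytes and osteoblasts, was at 96.8, 93.7 and 91.8 FPKM in controls and at 111, 138 and 132 FPKM in cKO libraries. For both genes the groups did not overlap, and the lowest cKO value was that of replicate 1. P4ha3 (chromosome 7, 100285520 to 100319699, plus strand), the third form, was at 92.0, 84.2 and 91.2 FPKM in controls and at 90.5, 81.9 and 102 FPKM in cKO libraries, which overlapped.

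Mean levels of P4ha1 were 94.1 ± 5.17 FPKM in controls and 116 ± 8.61 FPKM in cKO (SD, n = 3), a log2 fold change of 0.30 (SE 0.08, adjusted p = 0.312 by limma). For P4ha2 they were 94.1 ± 2.52 and 127 ± 14.2 FPKM, a log2 fold change of 0.43 (SE 0.09, adjusted p = 0.312 by limma). Neither passed the threshold after adjustment over all rows. Without cKO replicate 1, the log2 fold change of P4ha2 was 0.52 with an adjusted p of 0.0284 by limma, in a fit that called 324 rows (2.80%) in place of 0. For P4ha3 the difference was 0.03 on the log2 scale, with a 95% interval from -0.19 to 0.25 (adjusted p = 0.904 by limma), and its sign turned without control replicate 2 (-0.0083) and without cKO replicate 3 (-0.05).

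In the control libraries the 3 α subunit genes were nearly equal in level. P4ha1 made up 33.1% to 34.6% of their summed FPKM, P4ha2 33.5% to 34.8% and P4ha3 31.2% to 33.3%. In cKO replicates 1, 2 and 3 the share of P4ha2 was 35.9%, 41.2% and 36.8%, and that of P4ha3 was 29.2%, 24.4% and 28.3%. The cKO shares of P4ha2 lay above, and those of P4ha3 below, all control shares (differences of 4.02 and -4.83 percentage points, each with exact permutation p = 0.1, the smallest that 3 libraries against 3 allow, 2-sided). The shares of P4ha2 and P4ha3 were added to the planned share, that of P4ha1. The share of P4ha1 overlapped between the groups and differed by 0.82 points (exact permutation p = 0.2), or by 0.41 points without control replicate 3. The shares are formed within a library and so do not depend on scaling between libraries.

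Lysyl hydroxylases differ in where along the collagen chain they act. Plod1 (chromosome 4, 147909753 to 147936767, minus strand), whose product hydroxylates lysines of the helical part, was at 107, 92.1 and 88.9 FPKM in control replicates 1, 2 and 3 and at 100.95, 143.5 and 144 FPKM in cKO replicates 1, 2 and 3. Plod2 (chromosome 9, 92542223 to 92608428, plus strand), whose product hydroxylates the telopeptides from which bone-type crosslinks form, was at 30.8, 40.5 and 35.3 FPKM in controls and at 40.2, 55.4 and 56.2 FPKM in cKO libraries. In both genes cKO replicates 2 and 3 were above every control, while cKO replicate 1 lay within the control range. Plod3 (chromosome 5, 136987019 to 136996648, plus strand), whose product also adds galactose and glucose to hydroxylysine, was at 154, 167 and 144 FPKM in controls and at 165, 141 and 154 FPKM in cKO libraries, with no separation.

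The means of Plod1 were 96.04 ± 9.72 and 129.56 ± 24.8 FPKM in control and cKO libraries (SD, n = 3), a log2 fold change of 0.41 (SE 0.15, adjusted p = 0.342 by limma). For Plod2, the lowest of the 10 genes in both groups, they were 35.5 ± 4.85 and 50.6 ± 9.02 FPKM, a log2 fold change of 0.49 (SE 0.15, adjusted p = 0.312 by limma), the largest in size of the 10 genes. Leaving out cKO replicate 1 gave Plod1 a log2 fold change of 0.58 (adjusted p = 0.0412 by limma) and Plod2 one of 0.65 (adjusted p = 0.0529). Without cKO replicate 2 or 3, Plod1 and Plod2 were no longer among the genes with an unadjusted p-value under 0.05. The same held for Plod2 without control replicate 1 and for Plod1 without control replicate 2 or 3. Plod3 differed by -0.02 on the log2 scale, with a 95% interval from -0.23 to 0.18 (adjusted p = 0.938 by limma). Under median-ratio scaling or quantile normalisation the sign of Plod3 turned, with values of 0.0021 and 0.0094, as it did without control replicate 2 (0.03) or cKO replicate 2 (0.04). The minus-strand gene Znhit1, at a mean of 47.6 FPKM, overlaps 1003 bases of Plod3, and without a statement that counting used strand, reads there cannot be assigned to either gene.

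The make-up of the lysyl hydroxylase family followed the same libraries. Plod3 contributed 52.8% to 55.8% of the summed FPKM in controls and 53.8% in cKO replicate 1, but 41.5% and 43.4% in cKO replicates 2 and 3. The share of Plod2 was 10.5%, 13.5% and 13.1% in controls and 13.2%, 16.3% and 15.9% in cKO replicates, a difference of 2.72 percentage points (exact permutation p = 0.2, 2-sided), or of 1.79 points without control replicate 1. In the plot of family make-up, cKO replicate 1 therefore looks like a control for Plod1 to Plod3.

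**Figure D2:**
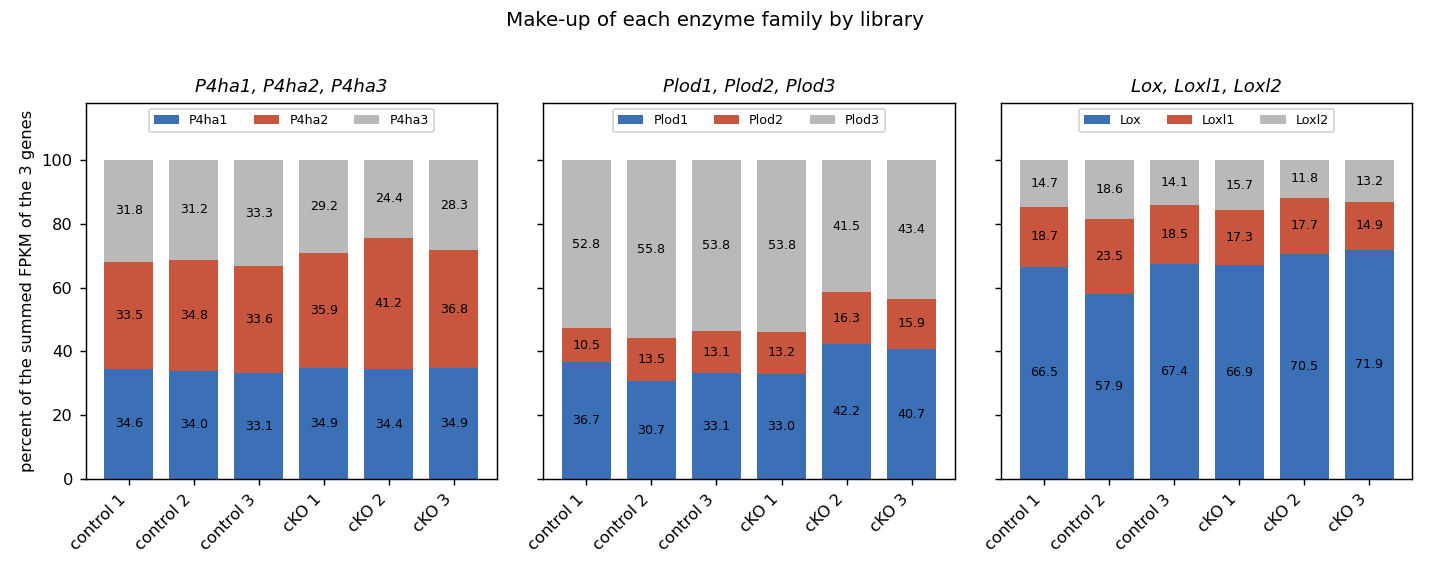
Percent of the summed FPKM of each family contributed by each gene, stacked per library, for the P4ha, Plod and Lox genes. The P4ha3 segment is 31.2% to 33.3% in controls and 24.4% to 29.2% in cKO libraries, and the Plod3 segment is smaller only in cKO replicates 2 and 3.

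Promoter sequence is shown for hydroxylase genes because P4ha1, P4ha2 and Plod1 were above every control in both cKO replicates 2 and 3 while P4ha3 and Plod3 were not, and because hydroxylases are classic targets of the oxygen-regulated factor HIF-1, which binds the cores ACGTG and GCGTG. The 250 bases before the RefSeq start of each gene (GRCm38.p6) were taken, 5′ to 3′ on the strand of the gene, for the 6 members with an entry. Plod2, Lox, Loxl1 and Loxl2 had none. Capitals mark either core on either strand, CACGT and CACGC being the reverse complements of the cores.
P4ha1: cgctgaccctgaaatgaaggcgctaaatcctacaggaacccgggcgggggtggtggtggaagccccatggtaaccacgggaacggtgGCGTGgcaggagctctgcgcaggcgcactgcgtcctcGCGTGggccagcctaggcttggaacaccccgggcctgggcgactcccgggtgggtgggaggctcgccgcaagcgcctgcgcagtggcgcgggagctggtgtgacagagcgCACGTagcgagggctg
P4ha2: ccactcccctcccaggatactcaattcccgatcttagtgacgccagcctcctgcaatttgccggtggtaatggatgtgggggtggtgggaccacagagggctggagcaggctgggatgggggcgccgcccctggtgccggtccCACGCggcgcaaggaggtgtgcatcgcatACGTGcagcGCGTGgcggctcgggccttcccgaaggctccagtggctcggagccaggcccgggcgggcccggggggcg
P4ha3: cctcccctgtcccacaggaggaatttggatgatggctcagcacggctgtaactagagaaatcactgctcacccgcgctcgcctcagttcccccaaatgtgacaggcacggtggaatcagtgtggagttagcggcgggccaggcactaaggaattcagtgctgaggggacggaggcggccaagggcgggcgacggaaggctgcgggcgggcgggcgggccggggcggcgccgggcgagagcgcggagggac
Plod1: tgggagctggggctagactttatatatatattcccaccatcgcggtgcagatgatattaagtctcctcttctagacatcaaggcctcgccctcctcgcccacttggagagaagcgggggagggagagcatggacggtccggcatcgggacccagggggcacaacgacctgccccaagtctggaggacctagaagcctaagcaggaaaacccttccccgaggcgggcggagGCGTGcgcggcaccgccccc
Plod3: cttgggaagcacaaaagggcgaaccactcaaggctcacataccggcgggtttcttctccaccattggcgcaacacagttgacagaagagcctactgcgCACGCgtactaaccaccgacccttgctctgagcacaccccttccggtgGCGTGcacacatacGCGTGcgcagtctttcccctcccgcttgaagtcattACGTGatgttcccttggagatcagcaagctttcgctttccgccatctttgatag

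The windows are chr10:59323046-59323295 for P4ha1, chr11:54100674-54100923 for P4ha2 and chr7:100285270-100285519 for P4ha3, all on the plus strand. Those of Plod1 and Plod3 are chr4:147936777-147937026 on the minus strand and chr5:136986769-136987018 on the plus strand. The GENCODE M21 gene of P4ha2 starts upstream of its RefSeq window, and no exon of that gene overlaps the window. P4ha1 held 1 ACGTG and 2 GCGTG, P4ha2 likewise held 1 and 2, and Plod1 held 0 and 1. P4ha3 held neither core. Plod3, whose groups overlapped, held 1 ACGTG and 3 GCGTG, and Serpinh1 held 1 ACGTG, so genes on both sides of that divide held a core. Among 32851 RefSeq promoters of the same length, 16.6% held ACGTG, 28.2% held GCGTG and 38.6% held either. A match of 5 bases is a description of the letters and not evidence of binding.

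Lysyl oxidases act on secreted collagen and elastin. Lox (chromosome 18, 52516067 to 52529867, minus strand), the founding member, was the second most abundant of the 10 genes. It was at 452, 406 and 452 FPKM in control replicates 1, 2 and 3 and at 508, 523 and 573 FPKM in cKO replicates 1, 2 and 3, so the groups did not overlap. The means were 437 ± 26.6 and 535 ± 33.8 FPKM (SD, n = 3), a log2 fold change of 0.29 (SE 0.08, adjusted p = 0.312 by limma). Its log2 fold change ran from 0.24 to 0.33 with 1 library left out, and the adjusted p from 0.108 to 0.674, and it passed the adjusted threshold in none of these fits.

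Loxl1 (chromosome 9, 58287738 to 58313186, minus strand), best known for its part in elastic fibres, was at 127, 164 and 124 FPKM in controls and at 132, 132 and 119 FPKM in cKO libraries. Loxl2 (chromosome 14, 69609068 to 69695834, plus strand), which acts on collagen IV among other substrates, was at 100.05, 130.04 and 94.2 FPKM in controls and at 119, 87.2 and 105 FPKM in cKO libraries. Control replicate 2 was the highest library for both genes, and also for Loxl3, another member of the family, at 182 FPKM against 124 to 167 FPKM in the other libraries. Log2 fold changes were -0.11 for Loxl1 (95% interval -0.39 to 0.17, adjusted p = 0.694 by limma) and -0.05 for Loxl2 (95% interval -0.42 to 0.32, adjusted p = 0.904). Without control replicate 2 they were 0.02 and 0.09, and Loxl2 was at 0.07 without cKO replicate 2, so these signs rested on single libraries. Loxl2 shares part of its span with the antisense gene Gm27177 and Lox with another antisense gene, and levels of such overlapping genes are uncertain where counting ignored strand.

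Lox supplied 57.9% to 67.4% of the summed FPKM of Lox, Loxl1 and Loxl2 in controls and 66.9%, 70.5% and 71.9% in cKO replicates 1, 2 and 3. The shares overlapped and differed by 5.81 percentage points (SD 5.24 in controls and 2.56 in cKO, n = 3, exact permutation p = 0.2, 2-sided), or by 2.80 points without control replicate 2. The share of Loxl1 was 18.5% to 23.5% in controls and 14.9% to 17.7% in cKO libraries, which did not overlap (exact permutation p = 0.1, the smallest the design allows). It was added to the planned share, that of Lox. Since shares of a family sum to a whole, a larger part of Lox alone lowers that of the others.

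Whether genes of a family moved apart was examined with the log2 ratio of FPKM of every pair within a family, 9 pairs in all, a measure added after the levels had been seen. The ratio of P4ha2 to P4ha3 was 0.07, 0.15 and 0.01 in controls and 0.30, 0.76 and 0.38 in cKO replicates 1, 2 and 3. That of P4ha1 to P4ha3 averaged 0.08 ± 0.08 in controls and 0.35 ± 0.13 in cKO (SD, n = 3), and that of Lox to Loxl1 averaged 1.67 ± 0.31 and 2.07 ± 0.18. The ratio of P4ha1 to P4ha2 was lower in cKO, at -0.13 ± 0.12 against -0.0022 ± 0.04. These 4 ratios did not overlap between the groups, each with exact permutation p = 0.1 and an adjusted value of 0.225 over the 9 pairs, a test that could not have reached 0.05. No share over pairs of other rows was computed, so this count has no background. The P4ha pairs are not separate results, since each log2 ratio follows from the others. P4ha1, P4ha2 and Lox already separated the groups by level, so the ratios to P4ha3 and Loxl1 in part repeat that. The ratio of Plod1 to Plod2 averaged 1.44 ± 0.32 in controls and 1.35 ± 0.02 in cKO, with overlapping values (exact permutation p = 0.9).

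Serpinh1 (chromosome 7, 99345376 to 99353239, minus strand) was by far the most abundant of the 10 genes and stood at rank 33 of the 17001 rows by mean level. It was at 2317, 2255 and 2231 FPKM in controls and at 2407, 2267 and 2357 FPKM in cKO replicates 1, 2 and 3. The log2 fold change was 0.05, with a narrow 95% interval from -0.09 to 0.18 (adjusted p = 0.736 by limma), and under quantile normalisation it was -0.02. The main clients of HSP47 in these cells, the type I collagen chains Col1a1 and Col1a2, summed to 15752 to 16784 FPKM in controls and 16249 to 16522 FPKM in cKO libraries. Serpinh1 per 100 FPKM of these chains was 13.8, 14.3 and 13.8 in controls and 14.6, 14.0 and 14.3 in cKO, a difference of 0.33 (exact permutation p = 0.2, 2-sided). That difference was 0.19 without cKO replicate 1, 0.51 without control replicate 2 and 0.497 without cKO replicate 2.

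The other members were set against type I collagen in the same way, as an added measure. The summed level of Col1a1 and Col1a2 varied little, from 15752 to 16784 FPKM over the libraries. Dividing by it therefore largely repeats the separation of groups already seen in FPKM for P4ha1, P4ha2 and Lox. Per 100 FPKM of Col1a1 and Col1a2, P4ha2 was at 0.58, 0.59 and 0.57 FPKM in controls and at 0.67, 0.85 and 0.80 FPKM in cKO replicates 1, 2 and 3. Lox was at 2.69, 2.58 and 2.78 FPKM in controls and at 3.08, 3.22 and 3.48 FPKM in cKO libraries. P4ha1, P4ha2 and Lox had cKO values above all control values on this measure, and the other members overlapped.

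By mean level in the controls the order was Serpinh1, Lox, Plod3, Loxl1, Loxl2, Plod1, P4ha2, P4ha1, P4ha3 and Plod2. The gaps from Serpinh1 to Lox, from Lox to Plod3 and from P4ha3 to Plod2 were wider than the ranges of the libraries, and each other neighbouring pair overlapped. In the cKO libraries Plod1 and P4ha2 followed Plod3, ahead of Loxl1 and Loxl2, but the ranges of all neighbours from Plod3 to P4ha3 still overlapped. By mean level over all libraries, Plod2 was above 88.5% of all rows, and P4ha3, the next lowest of the 10, was above 94.6%.

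The libraries labelled cKO were not alike for these genes. Relative to the control mean, cKO replicate 1 stood at 1.1496 times for P4ha1, 1.18 for P4ha2, 1.05 for Plod1, 1.13 for Plod2 and 1.16 for Lox. The mean of cKO replicates 2 and 3 stood at 1.28, 1.44, 1.498, 1.57 and 1.26 times for the same genes. P4ha1, P4ha2 and Lox in cKO replicate 1 were still above every control, by a smaller margin than in the other cKO libraries. The level of Nell2 did not follow this order, being high in cKO replicates 1 and 3 and low in cKO replicate 2.

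P4ha1, P4ha2, Plod1, Plod2, Lox and Loxl2 have each been described as induced through HIF-1 in low oxygen, so a list of 15 other hypoxia and glycolysis genes was set beside them. This list was chosen with earlier results of these data known. Of these 15, 11 were higher at an unadjusted p-value under 0.05, where 5.37% of all rows were, and 0 lower, where 7.76% were. For 10 of them every cKO library was above every control, against 6.51% of all rows. Both counts include Ankrd37, at 0.60, 0.82 and 1.17 FPKM in controls and 1.25, 2.52 and 2.46 FPKM in cKO libraries. It would not have passed the filter on low values without the cKO libraries, so the filter favoured it. After adjustment by limma 0 passed. Their median log2 fold change was 0.55, with Ldha at 0.11 and Adm at -0.21. The summed level of the list was 3055 to 3533 FPKM in controls and 3471, 4520 and 4904 FPKM in cKO replicates 1, 2 and 3. On this sum, cKO replicate 1 was within the control range and the other cKO libraries were above it. The median centred log2 value of the list was -0.30 to -0.22 in controls and -0.09, 0.44 and 0.48 in cKO replicates 1, 2 and 3. Its part in the levels of the hydroxylases and Lox was not tested.

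**Figure D3:**
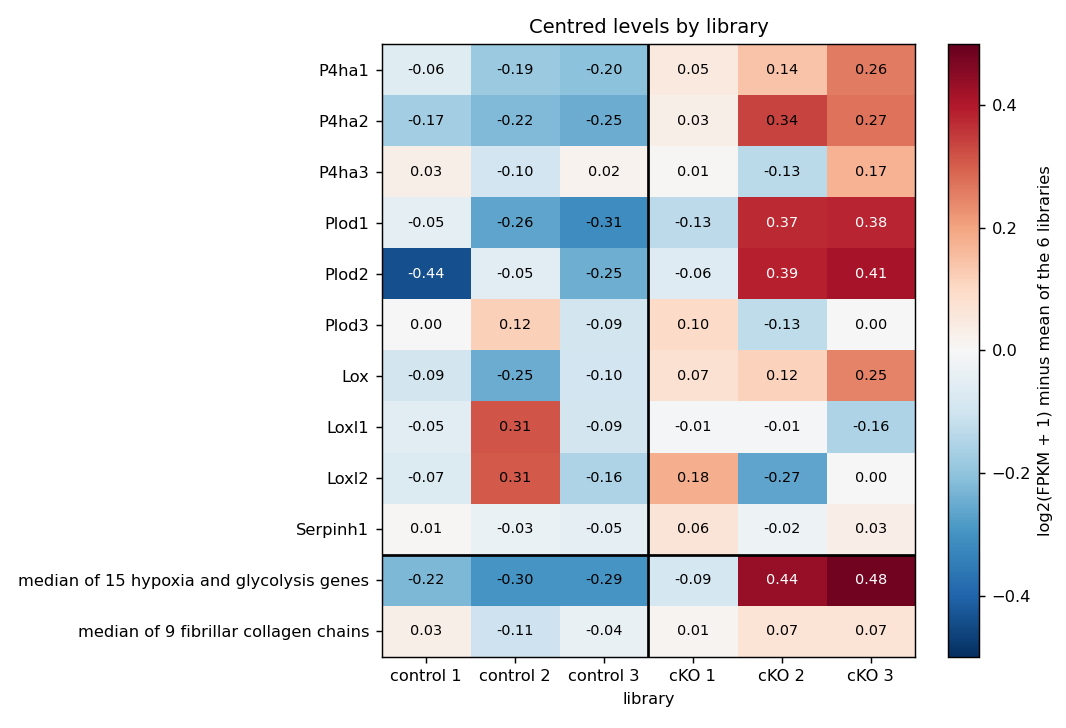
Heatmap of log2(FPKM + 1) minus the mean of the 6 libraries, with 1 row per gene and 1 column per library, and below the line the median of the 15 hypoxia and glycolysis genes and of the 9 fibrillar collagen chains. In cKO replicate 1, P4ha1, P4ha2 and Lox read 0.05, 0.03 and 0.07, above every control. Plod1 and Plod2 read -0.13 and -0.06 in that library, within their control ranges. The hypoxia list reads -0.09 in cKO replicate 1, above its controls, and 0.44 and 0.48 in cKO replicates 2 and 3. The row of collagen chains stays between -0.11 and 0.07.

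Markers of other cell types also differed between the libraries. The 6 epithelial markers summed to 0.46, 3.61 and 13.4 FPKM in control replicates and 42.7, 36.9 and 18.2 FPKM in cKO replicates 1, 2 and 3, with Epcam, Krt14 and Krt5 listed at 0 in control replicate 1. This sum came mostly from Krt8 and Krt18, while Epcam, Cdh1, Krt14 and Krt5 were at or below 1.58 FPKM in every library. Krt8 overlapped between the groups, at 5.81 FPKM in control replicate 3 and 5.74 FPKM in cKO replicate 3. The 3 tested, Epcam, Krt8 and Krt18, were higher at an unadjusted p-value under 0.05, where 5.37% of all rows were. Epcam passed the filter on low values only through the cKO libraries, at 0 to 0.47 FPKM in controls and 1.21 to 1.58 FPKM in cKO. Its place in this count was therefore favoured by the filter. The adipocyte sum of 5 markers came mostly from Fabp4, while Adipoq and Plin1 were under 0.4 FPKM in every library. Of the 3 tested adipocyte markers, 2 were higher at an unadjusted p-value under 0.05 (Fabp4 and Pparg), and Cebpa had a log2 fold change of 0.02. The cartilage list, with 3 of 5 tested genes higher at an unadjusted p-value under 0.05, summed to 99.4 to 169 FPKM in controls and 154 to 179 FPKM in cKO libraries. The endothelial list was under 4 FPKM in every library, and macrophage and muscle lists ranged from 34.4 to 93.7 FPKM. Among 9 tested osteoblast lineage markers, 4 were lower at an unadjusted p-value under 0.05 (Sp7, Alpl, Bglap and Ibsp), where 7.76% of all rows were. Spp1 and Col1a2 had log2 fold changes of 0.12 and 0.04, the 2 positive ones of the list. The epithelial sum of every cKO library was above that of every control, as were the levels of P4ha1, P4ha2 and Lox. Among the cKO libraries, the epithelial sum was highest in replicate 1, and P4ha1, P4ha2, Plod1, Plod2 and Lox were lowest there. An order of 3 libraries cannot settle whether they are linked. The part of these markers in the levels of the collagen enzymes was not tested, and in RNA from a whole culture fewer cells of a type and less RNA per cell cannot be told apart.

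The rest of the collagen production line was read from lists of other genes. Among 15 tested genes of folding and modification, 0 were higher and 1 was lower at an unadjusted p-value under 0.05. The shares of all rows at that level were 5.37% higher and 7.76% lower. The median log2 fold change of the 15 was -0.0082. P4hb, protein disulphide isomerase and the β subunit that completes prolyl 4-hydroxylase, was at 845 to 895 FPKM in controls and 874 to 919 FPKM in cKO libraries, with a log2 fold change of 0.03 (95% interval -0.11 to 0.17, adjusted p = 0.828 by limma). The level of P4hb was thus far above the summed level of the 3 α subunits. Colgalt1, which adds galactose to hydroxylysine, had a log2 fold change of 0.03 (adjusted p = 0.857), and Fkbp10, a prolyl isomerase that works with telopeptide lysyl hydroxylation, one of -0.09 (adjusted p = 0.651).

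P3h4, a partner of the lysyl hydroxylase complex also known as SC65, was the 1 gene of that list lower at an unadjusted p-value under 0.05. It was at 103, 100.04 and 89.5 FPKM in controls and at 85.9, 72.0 and 82.0 FPKM in cKO replicates 1, 2 and 3. Its cKO libraries were all below the controls, as for 11.8% of all rows. The log2 fold change was -0.29 (SE 0.09, adjusted p = 0.312 by limma). Its cKO values were thus lower, where those of Plod1 had a higher mean. Of the other lysyl oxidases, Loxl3 had a log2 fold change of -0.10 (adjusted p = 0.790 by limma), and Loxl4, at 5.17 to 8.74 FPKM, one of 0.09 (adjusted p = 0.853).

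Among 11 tested genes of procollagen export and processing, 0 passed an unadjusted p-value of 0.05 in either direction, with a median log2 fold change of -0.00029. Among 9 fibrillar collagen chains, 1 was higher at that level, where 5.37% of all rows were, and 0 lower, with a median of 0.08. The substrates themselves, Col1a1 and Col1a2, had log2 fold changes of -0.0090 (95% interval -0.15 to 0.13) and 0.04 (95% interval -0.11 to 0.19), with adjusted p-values of 0.961 and 0.808 by limma. Col5a3, a minor chain of collagen V, was at 5.70, 6.23 and 5.99 FPKM in controls and at 7.22, 17.1 and 12.3 FPKM in cKO replicates 1, 2 and 3 (log2 fold change 0.85, SE 0.26, adjusted p = 0.312 by limma).

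**Figure D4:**
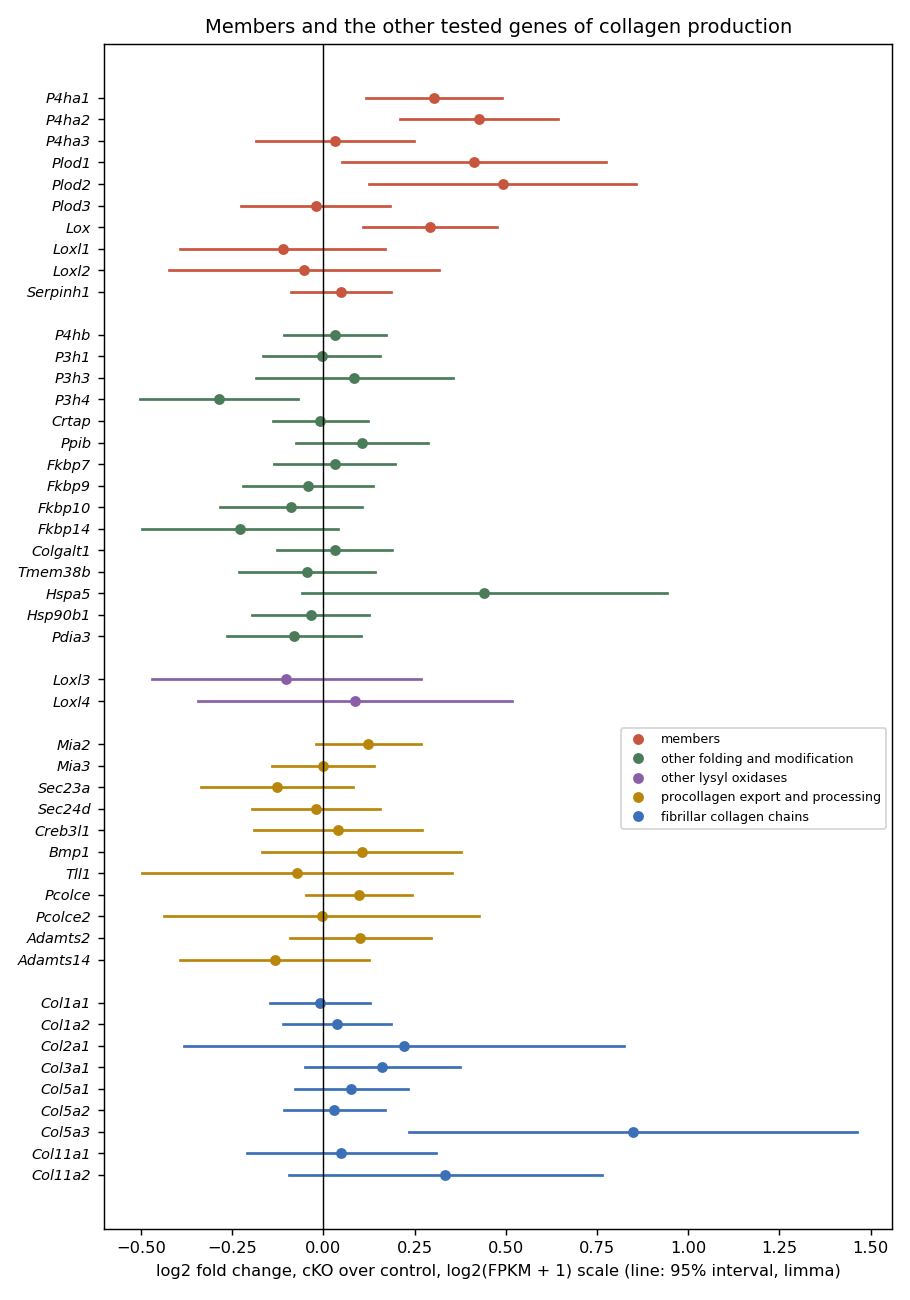
Log2 fold change of cKO over control on the log2(FPKM + 1) scale for the 10 genes and the other tested genes of collagen production, with points for the estimate and lines for the 95% interval of limma. The intervals of P4ha1, P4ha2, Plod1, Plod2, Lox and Col5a3 lie above 0 and that of P3h4 below 0, none of them corrected for the number of rows tested.

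For the genes with the largest log2 fold changes, Plod2 and P4ha2, the rows with the most similar profile were sought by the root-mean-square difference of centred log2(FPKM + 1) over the 6 libraries. Nearest to Plod2 were Adra2a (0.03), Htra1 (0.06), Siah2 (0.07), Lonp1 (0.08) and Ddit4 (0.08), where the own spread of Plod2 on this scale was 0.31. Nearest to P4ha2 were 1700088E04Rik (0.04), Dbp (0.05), Mthfd1l (0.05), Aars (0.06) and Rbpj (0.06), against an own spread of 0.23. Htra1, a secreted protease, was at 164, 190.3 and 184 FPKM in controls and at 203, 278 and 269 FPKM in cKO replicates 1, 2 and 3. With 6 libraries many rows can resemble each other, and no shared function is read from this list.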

How the data were processed

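PolyA RNA of 6 libraries was sequenced as paired ends. The submitters' processing notes name HISAT2, GRCm38 and DESeq, and the study describes mapping to the mouse transcriptome, and per the file headers the deposited values are FPKM, although the table is titled as raw counts. The versions, the annotation and the program that gave FPKM are not given in the sources used here. Since FPKM is not a read count, no count model was fitted and depth is unknown.

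Groups and replicate numbers were taken from the sample titles. Rows that reached 1 FPKM in 3 or more libraries (11590 of 17001) were compared as log2(FPKM + 1) with limma 3.58.1 (R 4.3.3; lmFit, eBayes without trend, Benjamini-Hochberg adjustment over all tested rows). Fold changes on this scale understate those of low genes. Ratios and shares used FPKM directly, with exact permutation tests in scipy 1.17.1. Planned were the shares of P4ha1, Plod2 and Lox in their families and Serpinh1 per 100 FPKM of Col1a1 and Col1a2. Each of these overlapped between the groups (exact permutation p = 0.2). The other shares and the other measures against type I collagen were added. The limma fit was run on simulated data before use, with folds larger than those of the 10 genes. That run does not show how well differences of their size are recovered. Named genes were the 10 members, Nell2, P4hb, Loxl3, Loxl4, Col1a1, Col1a2, Colgalt1 and Fkbp10, up to 5 genes per list at an unadjusted p-value under 0.05, and the 5 nearest profiles of 2 members. Markers, Znhit1, Gm27177, Tmem117, Ankrd37 and the genes named with them were chosen after their values were seen. The members and lists were chosen with earlier results of these data known. Gene positions are from GENCODE M21 and promoters from RefSeq (GRCm38.p6). Alternatives were pseudocount 0.1, other filters, a variance trend, 2 scalings, a replicate block, a Y-linked covariate and leaving out each library.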

Additional observations from a re-analysis of the deposited data

How the results depend on the processing

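The adjusted threshold was passed by 0 of the 10 genes, 5 of which had an unadjusted p-value under 0.05 by limma, and by 0 under each of the 8 alternatives that kept the 6 libraries. Leaving out 1 library gave counts from 0 to 2, the 2 being P4ha2 and Plod1 without cKO replicate 1, a fit that called 324 (2.80%) of all rows. Over all rows the number was 0 (0%), and 0 to 324 with 1 library left out, with 2 rows (0.017%) without control replicate 3. The number of the 10 genes at an unadjusted p-value under 0.05 was 5, all higher in cKO. In that fit 5.37% of all rows were higher and 7.76% lower. The number was 3 to 5 with 1 library left out, the 3 without cKO replicate 2 or 3. The share of all rows at that level was not computed for these fits. The log2 fold changes of P4ha1, P4ha2, Plod1, Plod2 and Lox were positive in every alternative. Those near 0 changed sign. With 1 library left out, P4ha3 ran from -0.0478 to 0.107, Plod3 from -0.0736 to 0.0378, Loxl1 from -0.186 to 0.0167 and Loxl2 from -0.158 to 0.0859. P4ha3 was -0.0144 with the Y-linked covariate, Plod3 was 0.0021 with median-ratio scaling and 0.0094 with quantile normalization, and Serpinh1 was -0.0179 with quantile normalization. The cause was not tested. With 1 library left out, differences in shares kept their sign but not their size: the Lox share ran from 2.80 (without control replicate 2) to 7.54 points, the P4ha1 share from 0.41 (without control replicate 3) to 1.18, the Plod2 share from 1.79 (without control replicate 1) to 3.69, and the Serpinh1 ratio from 0.19 (without cKO replicate 1) to 0.51.

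With the replicate block, 0 of the 10 genes and 0 (0%) of all rows were called. Of the 10 genes 4 had an unadjusted p-value under 0.05 in that fit, for which the share of all rows was not computed. Deviations of same-numbered libraries correlated at 0.03, -0.17 and 0.21, and those of differently numbered libraries at -0.27 to 0.28. With 3 libraries per group, these values cannot decide whether the numbers pair the libraries. FPKM hides the read counts, and counting error could not be given.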
